A study of Homo sapiens with 2 samples.

Results

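The endoplasmic reticulum genes described here are 36 genes taken by a rule that lists their names and holds no measured value, of 19927 gene rows in the count table. They comprise 3 sensors and transcription factors of the unfolded protein response, 12 chaperones and co-chaperones, 6 disulfide enzymes, 5 translocon genes and 10 degradation genes. They were compared between 2 cultures of Huh7, an established human hepatocellular carcinoma cell line. One culture carried a short hairpin RNA (shPPIL1) against PPIL1, a spliceosomal protein of the cyclophilin family, and the other carried a control hairpin and is labelled WT in its genotype (shControl). The design asks how knockdown of PPIL1 alters gene expression in these cells. Both were grown in the same medium with fetal bovine serum and antibiotics, and no agent that stresses the endoplasmic reticulum is named in the labels. Each group is 1 library of polyadenylated RNA, from 1 hairpin, and whether the cells were a pool or a clone is not given in the sources used here. With 1 library per group there is no replicate check and no test, so no p-value is given and every difference describes these 2 libraries.

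The endoplasmic reticulum folds and modifies secreted and membrane proteins, which in hepatocytes include albumin and most other plasma proteins. Nascent chains enter through the SEC61 channel, bind chaperones such as HSPA5 (BiP), receive disulfide bonds from the protein disulfide isomerases, and are sent back to the cytosol for degradation when they fail to fold. When unfolded proteins accumulate, the sensors ERN1 (IRE1), ATF6 and EIF2AK3 (PERK) start the unfolded protein response. ERN1 cuts a short intron out of XBP1 mRNA in the cytoplasm, without the spliceosome, and ATF6 is cleaved in the Golgi to release a transcription factor. The products of both bind short DNA elements before the starts of chaperone genes.

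Those elements stood before the starts of many of the genes described here, and they are shown because the response is known to act through them. The endoplasmic reticulum stress element (ERSE), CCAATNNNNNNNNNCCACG, and its shorter form ERSE-II, ATTGGNCCACG, were sought on both strands of a window from 250 bases before to 50 after each RefSeq transcription start (GRCh38.p14). Windows were at hand for 33 of the 36 members. At least 1 of these motifs was present in 11 of the 33 (33.3%). It was present in 44 of 27305 genes with a window (0.161%) and 30 of 10273 that also passed the filter on expression (0.292%). The members were named for the response that acts through these motifs. A higher share was thus built into the choice of genes and is not a result of these data. Members had fewer starts per gene (a mean of 1.21) than all genes with a window (1.29). ERSE was found in 8 members and 25 genes in all, and ERSE-II in 3 members and 19 genes in all. The motifs of the members follow, each read 5′ to 3′ on the strand that carries it, with the fixed letters in capitals.
CALR ERSE, chr19:12938384-12938402 (-): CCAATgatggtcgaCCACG
CANX ERSE, chr5:179698778-179698796 (+): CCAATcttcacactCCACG
CRELD2 ERSE, chr22:49918554-49918572 (-): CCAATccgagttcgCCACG
ERO1B ERSE, chr1:236282183-236282201 (+): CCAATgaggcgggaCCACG
HSP90B1 ERSE, chr12:103930216-103930234 (+): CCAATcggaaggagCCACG
HSP90B1 ERSE, chr12:103930321-103930339 (-): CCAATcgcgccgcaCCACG
HSPA5 ERSE, chr9:125241391-125241409 (-): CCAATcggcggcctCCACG
PDIA6 ERSE, chr2:10812853-10812871 (-): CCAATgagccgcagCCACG
XBP1 ERSE, chr22:28800603-28800621 (-): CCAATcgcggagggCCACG
HERPUD1 ERSE-II, chr16:56932025-56932035 (+): ATTGGgCCACG
HYOU1 ERSE-II, chr11:119057380-119057390 (+): ATTGGaCCACG
HYOU1 ERSE-II, chr11:119057274-119057284 (+): ATTGGaCCACG
SDF2L1 ERSE-II, chr22:21642114-21642124 (-): ATTGGtCCACG
All these copies lay before the start, with centres from position -43 (XBP1) to position -234 (ERO1B) counted from it. HSP90B1 and HYOU1 each had 2 copies, and no member held both kinds of motif. The PDIA6 and CANX copies lie before alternative starts within the annotated span of those genes. The copy before CRELD2 also lies before ALG12, a mannosyltransferase gene on the other strand that starts within the same window. A further element, UPRE (TGACGTGG), was in 2 members, HYOU1 and SEC62, and in 253 of the 27305 genes (0.927%).

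The 250 bases before the start are given for HSPA5, the main chaperone, for XBP1, the member that differed most between the libraries, and for CRELD2 and HERPUD1, which differed in opposite directions. Capitals mark ERSE in the first 3 and ERSE-II in HERPUD1.
HSPA5, chr9:125241344-125241593 (-): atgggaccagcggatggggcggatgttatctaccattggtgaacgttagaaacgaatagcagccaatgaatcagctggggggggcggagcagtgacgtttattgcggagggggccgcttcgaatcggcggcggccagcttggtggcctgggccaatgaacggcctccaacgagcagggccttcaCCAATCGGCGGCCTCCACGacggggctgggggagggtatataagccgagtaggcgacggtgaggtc
XBP1, chr22:28800570-28800819 (-): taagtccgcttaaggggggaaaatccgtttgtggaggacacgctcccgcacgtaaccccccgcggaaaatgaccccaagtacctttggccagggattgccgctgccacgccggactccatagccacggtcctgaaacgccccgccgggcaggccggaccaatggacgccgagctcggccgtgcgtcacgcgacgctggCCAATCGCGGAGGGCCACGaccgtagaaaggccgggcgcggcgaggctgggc
CRELD2, chr22:49918384-49918633 (+): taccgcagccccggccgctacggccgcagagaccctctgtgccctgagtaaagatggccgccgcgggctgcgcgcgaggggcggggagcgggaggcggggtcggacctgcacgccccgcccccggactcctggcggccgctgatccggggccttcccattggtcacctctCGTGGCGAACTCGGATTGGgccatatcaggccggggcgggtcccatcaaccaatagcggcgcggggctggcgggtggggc
HERPUD1, chr16:56931892-56932141 (+): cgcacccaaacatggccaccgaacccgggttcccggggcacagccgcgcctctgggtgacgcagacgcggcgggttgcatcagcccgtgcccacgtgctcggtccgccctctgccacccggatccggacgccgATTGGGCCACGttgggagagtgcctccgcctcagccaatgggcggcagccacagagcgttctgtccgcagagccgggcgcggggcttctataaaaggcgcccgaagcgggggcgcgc
A match is a description of the letters in the window and was not tied to binding in these cells.

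**Figure D1:**
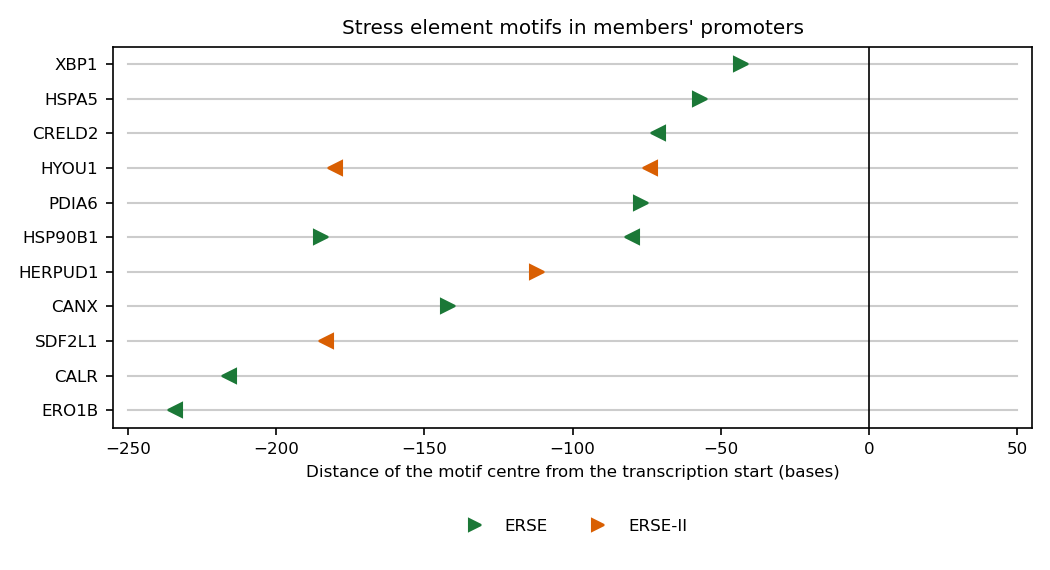
Positions of ERSE and ERSE-II motifs in the promoters of the 11 members that hold one. The horizontal axis gives the distance of the motif centre from the transcription start in bases, each grey line is a searched window, and an arrowhead pointing right marks a motif on the gene's own strand. XBP1, HSPA5 and CRELD2 have the motifs closest to the start.

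The libraries were alike in depth, with 41165401 counted reads (shPPIL1) and 41015345 (shControl). PPIL1 had 104 reads in shPPIL1 and 1505 in shControl, which is 6.79% of the control level (95% counting interval 5.51 to 8.29%), in the direction of the labels. All 10 hepatocyte and hepatoma markers were detected in both libraries, with summed levels of 11180 FPKM in shPPIL1 and 10794 FPKM in shControl. The 5 fibroblast markers summed to 16.1 and 15.7 FPKM, the 4 endothelial markers to 1.34 and 1.58 FPKM and the 5 immune markers to 19.9 and 20.8 FPKM, in shPPIL1 and shControl in that order. LUM and CD68 made up most of the fibroblast and immune sums, COL3A1 had 48 reads in shPPIL1 and 16 in shControl, KDR and MS4A1 had 0 reads in both libraries, and VWF had 0 in shPPIL1. FPKM is the deposited level, scaled for gene length and library total. A comparison between genes rests on the lengths behind it, which were not checked. For ATF6 that length was 9961 bases, against 7496 for its longest annotated coding transcript. In a culture, fewer cells with a transcript and less of it per cell cannot be told apart.

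As a group, the endoplasmic reticulum genes were highly expressed and stayed close to their control level. The 36 genes took 1.09% of reads in shPPIL1 (exact 95% interval 1.08 to 1.09%) and 1.09% in shControl (1.09 to 1.10%). Their summed level was 4005 FPKM in shPPIL1 and 4028 FPKM in shControl. A gene was kept for comparison when it reached 1 CPM, its reads scaled to library size, in at least 1 library, which 34 members and 12540 genes in all did. EDEM2 and DERL3 did not. Each ratio below is shPPIL1 over shControl after scaling of library sizes, with an exact 95% interval that covers counting error only. Of the 34 kept members, 2 were at least 1.2-fold higher with an interval excluding 1 and 1 was at least 1.2-fold lower, together 8.82%. Over all kept genes the same rule called 17.8%, 8.32% higher and 9.52% lower. All 34 kept members had at least 1000 reads when the 2 libraries were added. Among the 9076 kept genes that reached this floor the rule called 12.4%, 5.01% higher and 7.38% lower. The floor does not match these genes to the members in depth, and the width of an interval depends on depth. At 1.5-fold 0 members were called, against 4.24% of kept genes, 2.02% higher and 2.22% lower.

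The 3 members past 1.2-fold were XBP1, which was lower, and ERO1B and SEC61G, which were higher. Ratios under 1.2-fold with an interval excluding 1 are called slightly higher or lower below. Such an interval was seen in 8 members above and 14 below the control level, 22 of 34 (64.7%). The share was 51.1% over all kept genes (24.6% higher and 26.4% lower). It was 56.8% over the kept genes that reached the 1000-read floor (26.6% higher and 30.2% lower). Neither share is matched to the members in depth. The median log2 ratio of the 34 members was -0.04, against 0.00 over all kept genes (-0.0017). The middle of the members, from the lower to the upper quartile, ran from -0.10 to 0.03 on the log2 scale, against -0.13 to 0.12 over all kept genes. Of the members, 25 (73.5%) lay within 1.1-fold, against 53.8% of all kept genes and 62.2% of the kept genes that reached that floor. These shares are not matched in depth either.

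**Figure D2:**
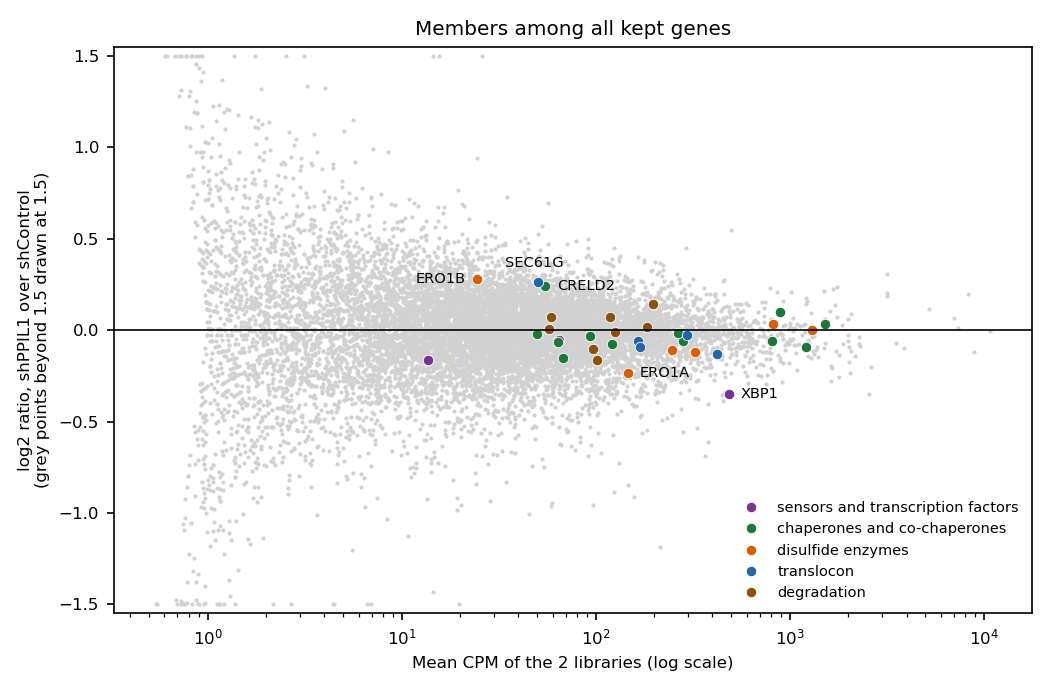
Log2 ratio of shPPIL1 over shControl (vertical axis) against the mean CPM of the 2 libraries (horizontal axis, log scale) for the 12540 kept genes, with the 34 kept members coloured by role and the other genes in grey, those beyond 1.5 drawn at the edge. The members sit on the abundant side, with a median of 156 CPM against 31.9 CPM over all kept genes, and XBP1 lies below the other members.

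Among sensors and transcription factors, XBP1 was the one whose interval excluded 1. XBP1 encodes the transcription factor that is made once its mRNA has been cut by ERN1. It had 17676 reads in shPPIL1 and 22105 in shControl, or 249 FPKM and 312 FPKM. The ratio was 0.786 (0.770 to 0.801), a level 1.27-fold lower in shPPIL1 and the lowest ratio of the 34 kept members. Of the 227 kept genes with at least as many control reads as XBP1, itself included, 1 had a lower ratio. That gene, named here after its values were seen, was ACTB, the cytoskeletal beta-actin, with a ratio of 0.784 (0.778 to 0.791). XBP1 was the lowest member and the cut was set at its own count, so this rank does not measure how unusual XBP1 is. At 1.2-fold 9.52% of all kept genes were called lower, and 7.38% of those that reached the 1000-read floor.

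XBP1 lies on chromosome 22 from 28794560 to 28800569 (GRCh38) on the minus strand, overlapped by 0 other genes of the count table. The intron that ERN1 removes was found in exon 4 of its coding sequence (GENCODE release 29 transcripts) as a pair of cleavage loops, CNGCAGC, 26 bases apart, at chr22:28796127-28796152. It is shown because it decides which XBP1 protein is made. Capitals mark the 26 bases that are cut out, with 2 bases on either side in lower case.
XBP1 intron: cgCAGCACTCAGACTACGTGCACCTCTGca
Of 5 annotated coding transcripts of XBP1, 3 hold these bases and 2 hold the joined form. The deposited counts are per gene, so the cut and uncut forms were counted together and the ratio above says nothing of their balance.

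The sensors upstream of XBP1 had much lower levels. ERN1, the kinase and nuclease that cuts XBP1 mRNA, had 1.65 FPKM in shPPIL1 (536 reads) and 1.82 FPKM in shControl (590 reads). Its ratio of 0.893 had an interval of 0.793 to 1.01, which includes 1. ATF6, the membrane-bound transcription factor, had 6.46 FPKM in shPPIL1 and 6.61 FPKM in shControl, a ratio of 0.963 (0.913 to 1.02). By FPKM, and so by the deposited gene lengths, the level of XBP1 was 38.5 times that of ATF6 in shPPIL1 and 47.2 times in shControl. The 3 genes had a median log2 ratio of -0.16.

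**Figure D3:**
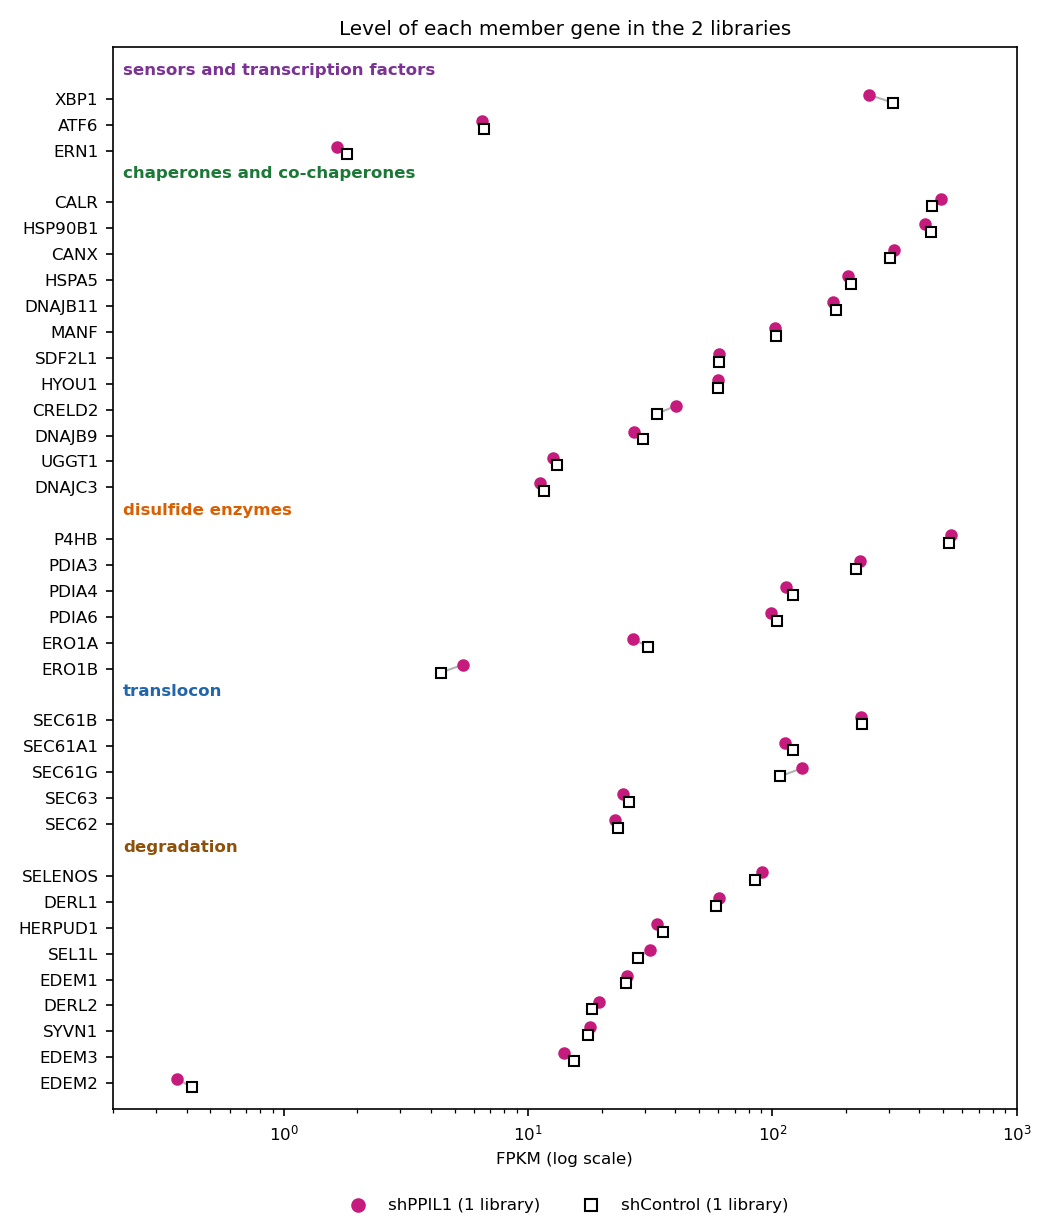
Level of each detected member in FPKM (horizontal axis, log scale), grouped by role, with filled circles for shPPIL1 and open squares for shControl, 1 library each. The levels run from 0.367 FPKM (EDEM2) to 538 FPKM (P4HB) in shPPIL1, and the pairs of symbols nearly coincide for most genes.

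The chaperones held more reads than any other role, and 10 of the 12 lay within 1.1-fold of the control level, all but CRELD2 and DNAJB9. None of the 12 was called at 1.2-fold, 3 had an interval above 1 and 5 below, and the median log2 ratio was -0.05. Of all kept genes, 53.8% lay within 1.1-fold, 17.8% were called, 24.6% had an interval above 1 and 26.4% below. Those shares are not matched to the chaperones in depth. HSPA5 (BiP), the Hsp70 of the endoplasmic reticulum whose mRNA is a standard readout of the unfolded protein response, had 32842 reads in shPPIL1 and 33656 in shControl. These are levels of 203 and 209 FPKM in that order, and the ratio was 0.959 (0.944 to 0.973). HSP90B1 (GRP94), the Hsp90 of this compartment, had 424 FPKM in shPPIL1 and 446 FPKM in shControl, a ratio of 0.937 (0.926 to 0.949). HYOU1, the large Hsp70 relative that exchanges nucleotide on HSPA5, had 60.0 FPKM in shPPIL1 and 59.8 FPKM in shControl, and its ratio of 0.990 had an interval including 1 (0.964 to 1.02). The main Hsp70 and Hsp90 chaperones were therefore slightly lower in shPPIL1, by less than 1.1-fold.

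The lectin chaperones, which hold glycoproteins during folding, lay slightly above the control level. CALR, the soluble calreticulin, had 489 FPKM in shPPIL1 and 450 FPKM in shControl, a ratio of 1.07 (1.06 to 1.09). CANX, its membrane-bound relative calnexin, had 314 FPKM in shPPIL1 and 303 FPKM in shControl, a ratio of 1.02 (1.01 to 1.03). UGGT1, the glucosyltransferase that returns unfolded glycoproteins to both lectins, had 12.6 FPKM in shPPIL1 and 13.2 FPKM in shControl, and its ratio of 0.948 (0.912 to 0.986) was on the other side, with an interval that included 1 under scaling by total counts.

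Among HSPA5 partners of the DnaJ family, DNAJB9 (ERdj4), which also binds ERN1, had 27.0 FPKM in shPPIL1 and 29.6 FPKM in shControl. Its ratio of 0.901 (0.855 to 0.950) was the lowest of the chaperones. DNAJB11 (ERdj3) had 177 FPKM in shPPIL1 and 182 FPKM in shControl, with a ratio of 0.961 (0.936 to 0.986). DNAJC3 (P58IPK) had 11.2 and 11.6 FPKM in that order and an interval that included 1 (0.905 to 1.01). SDF2L1, a partner of DNAJB11, had 60.7 FPKM in each library (2063 reads in shPPIL1 and 2055 in shControl). MANF, a secreted protein of the stressed endoplasmic reticulum that binds HSPA5, had 103 FPKM in shPPIL1 and 104 FPKM in shControl. The intervals of SDF2L1 (0.927 to 1.05) and MANF (0.934 to 1.02) also included 1.

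CRELD2, a cysteine-rich protein of the endoplasmic reticulum that is induced by stress there, was the highest of the chaperones and co-chaperones. It had 2466 reads in shPPIL1 and 2047 in shControl, or 40.5 and 33.7 FPKM in that order. Its ratio of 1.18 (1.12 to 1.26) was just under the 1.2-fold limit, and past it when libraries were scaled by total counts. MANF, which is secreted under the same stress, had a ratio of 0.977.

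**Figure D4:**
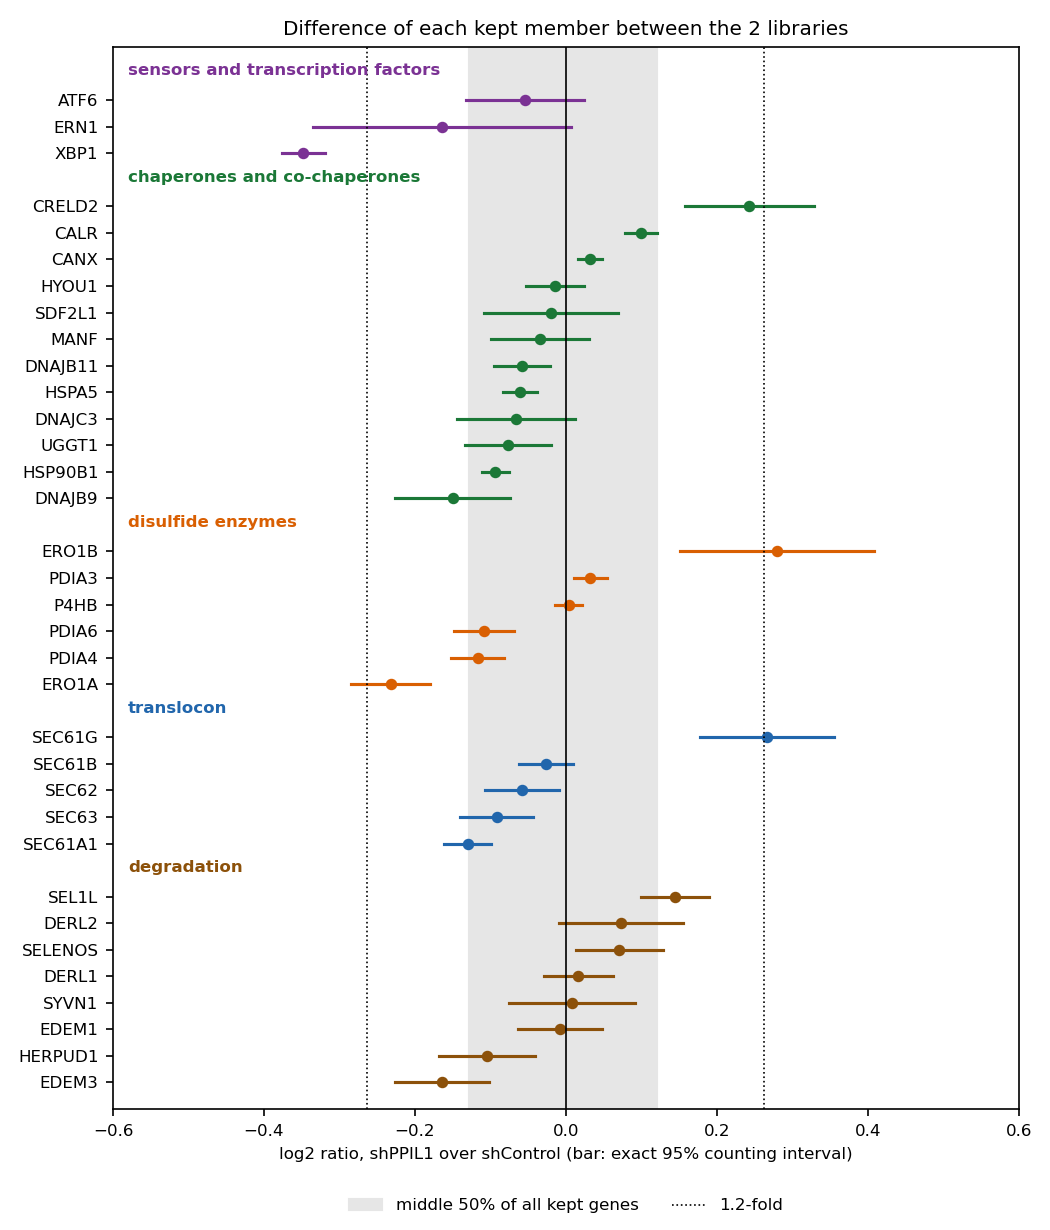
Log2 ratio of shPPIL1 over shControl for the 34 kept members by role, with exact 95% counting intervals as bars. The grey band is the middle 50% of all kept genes (-0.13 to 0.12) and the dotted lines mark 1.2-fold. XBP1 lies beyond the left line, and ERO1B and SEC61G lie just beyond the right one.

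Among the disulfide enzymes, the isomerases lay within 1.1-fold of the control level, and the ERO1 oxidases differed in opposite directions. PDIA3 was slightly higher, PDIA4 and PDIA6 were slightly lower, and P4HB had an interval including 1. P4HB (PDI), the highest of the 36 genes by FPKM, had 538 FPKM in shPPIL1 and 529 FPKM in shControl, a ratio of 1.00 (0.990 to 1.01). PDIA3 (ERp57), the isomerase that works with CALR and CANX, had 228 FPKM in shPPIL1 and 220 FPKM in shControl, a ratio of 1.02 (1.01 to 1.04). PDIA4 (ERp72) had 114 FPKM in shPPIL1 and 122 FPKM in shControl, a ratio of 0.922 (0.9003 to 0.945). PDIA6 (P5) had 98.5 FPKM in shPPIL1 and 105 FPKM in shControl, a ratio of 0.928 (0.902 to 0.954).

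ERO1A, the widely expressed oxidase that recharges P4HB and is also induced by hypoxia, had 5580 reads in shPPIL1 and 6439 in shControl. These are 26.8 and 31.1 FPKM in that order, and the ratio of 0.851 (0.821 to 0.883) was the second lowest of the 34 kept members. ERO1B, its relative best known from the pancreas, had 1111 reads in shPPIL1 and 899 in shControl, or 5.40 and 4.39 FPKM. Its ratio of 1.21 (1.11 to 1.33) was the highest of the kept members, though its level was lower than that of ERO1A in both libraries. On the log2(FPKM + 1) scale, which compresses low levels, its difference was 0.25 and under the limit. The level of ERO1A over that of ERO1B was 4.96 in shPPIL1 and 7.08 in shControl. Of this pair, ERO1B has an ERSE before its start and ERO1A has no match in its window. ERO1B lies on chromosome 1 from 236215101 to 236281958 and ERO1A on chromosome 14 from 52639915 to 52695558 (GRCh38).

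Of the 5 translocon genes, SEC61G was higher, 3 were slightly lower and 1 had an interval including 1. Among all kept genes, 24.6% had an interval above 1 and 26.4% below. SEC61A1, SEC61B and SEC61G encode the alpha, beta and gamma subunits of the channel, and SEC62 and SEC63 its auxiliary membrane proteins. SEC61A1 had 16654 reads in shPPIL1 and 17909 in shControl, or 113 and 121 FPKM, a ratio of 0.914 (0.895 to 0.933). SEC61B had 12215 reads in shPPIL1 and 12223 in shControl, or 231 and 232 FPKM, and its interval included 1 (0.957 to 1.01). SEC61G had 2293 reads in shPPIL1 and 1873 in shControl, or 132 and 108 FPKM, a ratio of 1.203 (1.13 to 1.28). The gamma subunit was thus on the other side of the control level from the alpha subunit. The level of SEC61G over that of SEC61A1 was 1.17 in shPPIL1 and 0.889 in shControl. SEC61G lies on chromosome 7 from 54752253 to 54759211 (GRCh38).

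The auxiliary genes were both slightly lower. SEC62 had 22.7 FPKM in shPPIL1 and 23.3 FPKM in shControl, a ratio of 0.960 (0.928 to 0.993) whose interval included 1 under scaling by total counts. SEC63, which carries the J domain that recruits HSPA5 to the channel, had 24.6 FPKM in shPPIL1 and 25.8 FPKM in shControl, a ratio of 0.938 (0.908 to 0.970). The median log2 ratio of the 5 translocon genes was -0.06, while their mean was -0.01.

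The degradation genes had a median at the control level, with members on either side. Of 10 genes, 8 were kept, 2 with an interval above 1 and 2 below, and the median log2 ratio was 0.01. These counts are near the shares over all kept genes, 24.6% above 1 and 26.4% below. SEL1L, the scaffold of the HRD1 ubiquitin ligase, had 8603 reads in shPPIL1 and 7645 in shControl, or 31.6 and 28.2 FPKM, a ratio of 1.11 (1.07 to 1.14). SYVN1, the HRD1 ligase itself, had 18.0 FPKM in shPPIL1 and 17.7 FPKM in shControl, with an interval including 1 (0.949 to 1.07). The level of the scaffold over that of the ligase was 1.76 in shPPIL1 and 1.60 in shControl. SELENOS, a selenoprotein that links derlins to the p97 ATPase, had 90.3 FPKM in shPPIL1 and 84.8 FPKM in shControl, a ratio of 1.05 (1.01 to 1.09).

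The derlins, membrane proteins of the exit channel, had intervals that included 1. DERL1 had 60.3 FPKM in shPPIL1 and 58.8 FPKM in shControl (ratio 1.01, 0.980 to 1.04), and DERL2 had 19.5 and 18.3 FPKM in that order (1.05, 0.994 to 1.11). DERL3 had 0 reads in both libraries, which allows up to 3 reads, or 0.0729 CPM in shPPIL1 and 0.0731 CPM in shControl. HERPUD1, a scaffold of the same ligase complex that is itself induced by endoplasmic reticulum stress, had 33.7 FPKM in shPPIL1 and 35.8 FPKM in shControl, a ratio of 0.930 (0.890 to 0.972).

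The EDEM genes encode mannosidase-like proteins that mark misfolded glycoproteins for degradation. EDEM1 had 25.5 FPKM in shPPIL1 and 25.2 FPKM in shControl, with an interval including 1 (0.957 to 1.03). EDEM3 had 14.01 FPKM in shPPIL1 and 15.5 FPKM in shControl, a ratio of 0.893 (0.855 to 0.932). EDEM2 had 29 reads in shPPIL1 and 33 in shControl, or 0.367 and 0.419 FPKM. It lies on chromosome 20 from 35115364 to 35147336 (GRCh38), inside the annotated readthrough gene MMP24-AS1-EDEM2, whose row had 18 reads in shPPIL1 and 16 in shControl. How reads that fall in both genes were counted is not given in the sources used here, so the level of EDEM2 is uncertain.

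Members with a stress element in their promoter did not stand on one side. The 11 carriers, all kept, had a median log2 ratio of -0.02 and ran from -0.35 (XBP1) to 0.28 (ERO1B), with 4 intervals above 1 and 5 below. The 21 kept members with a window and neither motif had a median of -0.06 and ran from -0.23 (ERO1A) to 0.27 (SEC61G), with 3 intervals above 1 and 9 below. Over all kept genes 24.6% had an interval above 1 and 26.4% below. Both the lowest and the highest member carried an ERSE. Of the 25 other genes in the count table with either motif, 19 were kept, with a median of 0.00 (-0.00075), 5 intervals above 1 and 7 below. FICD, the enzyme that attaches AMP to HSPA5 and removes it, was the highest of these, with 299 reads in shPPIL1 and 178 in shControl, a ratio of 1.65 (1.37 to 2.00).

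A wider set of 104 genes of the same pathways, none of them members, was described by 5 lists. Of these, 102 were kept, and 3 were called higher and 1 lower at 1.2-fold (3.92%). The share over all kept genes was 17.8%, 8.32% higher and 9.52% lower. Among the kept genes that reached the 1000-read floor it was 12.4%, 5.01% higher and 7.38% lower. Not all of the 102 genes reached that floor, and neither share is matched to them in depth. The medians of the 5 lists ran from -0.04 to -0.02 on the log2 scale. For the interval counts of each list below, the shares over all kept genes were 24.6% above 1 and 26.4% below. The called genes were FICD, SEC61A2 and SRPRA, which were higher, and TRIB3, which was lower.

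**Figure D5:**
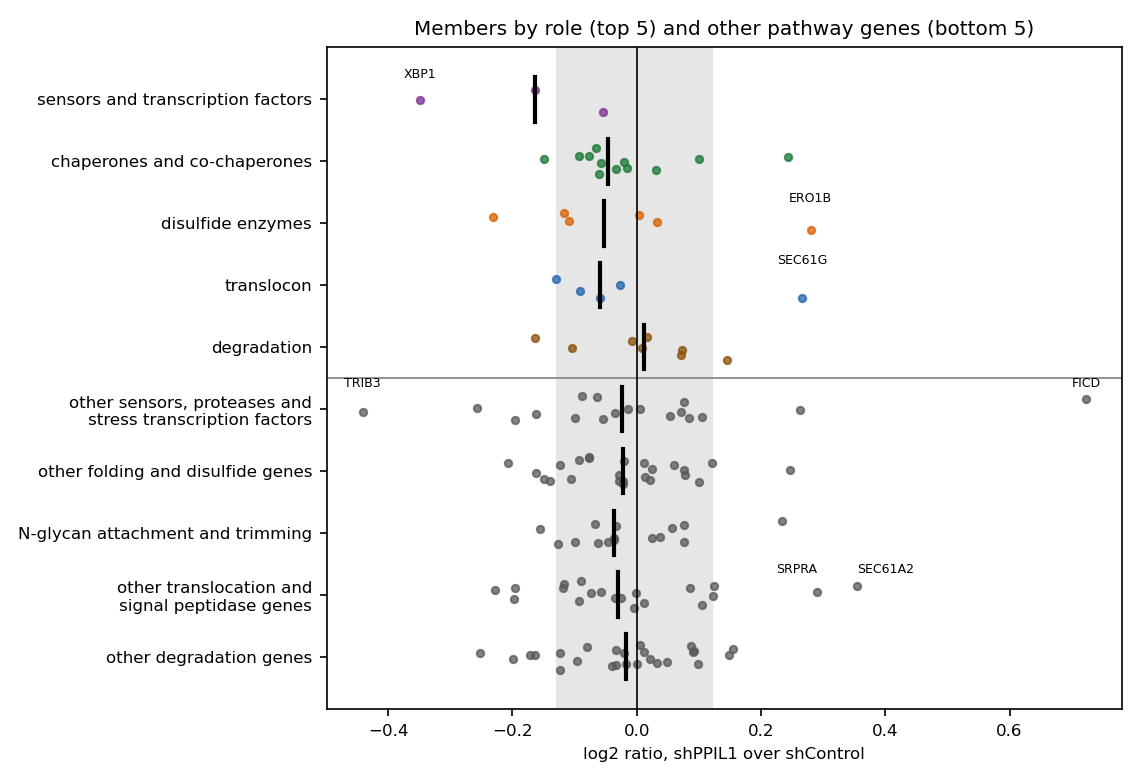
Log2 ratio of shPPIL1 over shControl for each kept gene (points), with list medians as black bars. The top 5 rows are the members by role, the bottom 5 rows the other pathway genes, and the grey band is the middle 50% of all kept genes. Genes called at 1.2-fold are named, 3 among the members and 4 among the other pathway genes.

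Of 18 other sensors, proteases and stress transcription factors, all kept, 3 had an interval above 1 and 4 below. EIF2AK3 (PERK), the third sensor, had 1362 reads in shPPIL1 and 1274 in shControl, with an interval including 1 (0.972 to 1.13). ATF4, the transcription factor translated after PERK acts, had 313 FPKM in shPPIL1 and 353 FPKM in shControl, a ratio of 0.873 (0.858 to 0.889). DDIT3 (CHOP), which ATF4 induces, had 820 reads in shPPIL1 and 856 in shControl, with an interval including 1 (0.854 to 1.04). TRIB3, a pseudokinase induced by both, had 53.3 FPKM in shPPIL1 and 71.4 FPKM in shControl, a ratio of 0.737 (0.709 to 0.765). MBTPS1, the site-1 protease that cleaves ATF6, had a ratio of 0.837 (0.809 to 0.867). ATF6B, the ATF6 relative, had a ratio of 1.199 (1.12 to 1.28), just short of the limit. BAX, the apoptosis effector, had a ratio of 1.06 (1.01 to 1.11).

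Other folding and disulfide genes had 5 intervals above 1 and 7 below among 24 kept genes. SDF2, the relative of SDF2L1, had a ratio of 1.09 (1.02 to 1.16), CLGN, a calnexin relative, 1.07 (1.02 to 1.13), and ERP29, a relative of the isomerases, 1.04 (1.01 to 1.07). PRDX4, the peroxidase that removes the peroxide made by ERO1 enzymes, had 127 FPKM in shPPIL1 and 141 FPKM in shControl, a ratio of 0.894 (0.860 to 0.929). DNAJC10 (ERdj5), a disulfide reductase, had a ratio of 0.918 (0.888 to 0.949) and PDIA5 0.867 (0.793 to 0.947).

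Genes of N-glycan attachment and trimming had 3 intervals above 1 and 4 below among 15 kept genes. GANAB, the catalytic subunit of glucosidase II, had a ratio of 0.897 (0.877 to 0.918), whereas its regulatory subunit PRKCSH had 1.04 (1.01 to 1.07). STT3B, a catalytic subunit of the oligosaccharyltransferase, had a ratio of 0.916 (0.904 to 0.928) and RPN1, another subunit, 0.933 (0.916 to 0.951). The subunits KRTCAP2 and DDOST had ratios of 1.18 (1.10 to 1.25) and 1.03 (1.00 to 1.05).

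Other translocation and signal peptidase genes had 6 intervals above 1 and 9 below among 20 kept genes. SEC61A2, the second alpha subunit of the channel, had 1485 reads in shPPIL1 and 1141 in shControl, or 15.6 and 12.1 FPKM, a ratio of 1.28 (1.18 to 1.38). SEC61A1, the abundant alpha subunit, was lower, as given above. SRPRA, the receptor subunit for the signal recognition particle, had 43.4 FPKM in shPPIL1 and 35.0 FPKM in shControl, a ratio of 1.22 (1.17 to 1.27). SRP72 and SRP9, proteins of that particle, had ratios of 0.853 (0.822 to 0.886) and 0.872 (0.828 to 0.918). SSR3, a subunit of the translocon-associated complex, had a ratio of 0.873 (0.839 to 0.908), and SPCS2, of the signal peptidase, 1.09 (1.04 to 1.14).

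Other degradation genes had 7 intervals above 1 and 9 below among 25 kept genes, with 0 called at 1.2-fold. RNF5, a ubiquitin ligase, had a ratio of 1.11 (1.07 to 1.16), the mannosidase MAN1B1 1.11 (1.05 to 1.17) and BCAP31, a membrane chaperone, 1.07 (1.03 to 1.11). The ubiquitin-conjugating enzymes UBE2G2 and UBE2J2 had ratios of 0.893 (0.848 to 0.940) and 0.888 (0.831 to 0.949), and UBXN8, which tethers the p97 ATPase, 0.839 (0.749 to 0.940).

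None of the 3 called members overlapped another gene of the count table, and 0 of the 36 members shared 20% or more of their sequence with a gene elsewhere. Overlap with another gene row, which makes a count uncertain where strand is not known, was found for 8 members, namely CANX, PDIA3, PDIA6, SEC61A1, EDEM2, SYVN1, DERL2 and DERL3.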

How the data were processed

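Polyadenylated RNA was sequenced from 2 Huh7 cultures. The authors deposited raw counts per gene and FPKM values per gene, and per the submitters' processing notes the build was hg38. The aligner, counter, annotation and strand setting were not given in the sources used here. Besides, the count table held 7 further per-sample columns that match no label, which were not used. Count, divided by library total and FPKM, gave a whole gene length within 0.001 bases for 99.9% of genes with a deposited FPKM above 0.

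Library sizes were scaled with TMM factors of edgeR 4.0.16 (R 4.3.3), 1.01 for shPPIL1 and 0.993 for shControl. Genes at 1 CPM or more in at least 1 library were kept. Ratios have exact Clopper-Pearson 95% intervals on the reads (scipy 1.17.1). For equal counts of 1000 the interval reached 1.09-fold and for 10000 1.03-fold. PCR reads without molecular identifiers are not independent, so intervals and floors cover counting error only. A gene was called at 1.2-fold or more with an interval excluding 1. The ratios, intervals and calls were tested on simulated counts with counting error alone, which hold no variation between cultures. The other steps were not part of that test.

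The rule for the members names genes and holds no measured value, but the members and lists were chosen with earlier results of these data known. The text names PPIL1, all members, and up to 3 higher and 3 lower genes of each wider list ranked by the interval bound nearest to 1, with EIF2AK3, ATF4 and DDIT3. Other genes are named only where their row or site bears on a member. Motifs were sought in RefSeq promoter windows (GRCh38.p14). Near-identical copies were sought by matching exact windows of 100 bases, at steps of 10, from the longest coding transcript of each listed gene to GENCODE release 29 transcripts of genes elsewhere, pseudogenes and non-coding ones included.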

Additional observations from a re-analysis of the deposited data

How the results depend on the processing

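No paired analysis was possible because each group holds 1 library, and for the same reason no library could be left out. The 3 calls at 1.2-fold, 2 higher and 1 lower, depend on the limit chosen. At 1.5-fold the counts were 0 higher and 0 lower, and with no minimum fold they were 8 higher and 14 lower. By log2(FPKM + 1), which has no interval and compresses low genes, the count of higher members was 1, since ERO1B (0.25) was no longer past the limit, and that of lower members was 1. Without XBP1, an alternative chosen after seeing the data, the count of lower members was 0, and the median of the members was -0.03 in place of -0.04. With DESeq2 1.42.0 size factors and with no filter on low counts the counts were again 2 higher and 1 lower. A filter of 5 CPM and leaving out genes that share sequence removed 0 members, so neither bears on the counts. With total counts CRELD2 was past the limit too, which made 3 higher. Under that scaling 10 members had an interval above 1 and 12 below, as UGGT1 and SEC62 now included 1 and P4HB and DERL2 lay above it. Over all kept genes it gave 3551 intervals above 1 and 2873 below, in place of 3087 and 3316 with TMM factors. HYOU1, SDF2L1 and EDEM1 changed sign under total counts, within intervals that include 1. The median of the translocon genes was -0.06 and their mean -0.0081, with SEC61G at 0.27. The other medians moved by less than the typical reach of a single gene's interval in the list, which is not the counting error of a median. For the members that reach was 0.050 on the log2 scale. Under total counts the median of the members was -0.024, and that of the other degradation genes was 0.0031 in place of -0.017. The median over all kept genes was then 0.019 in place of -0.0017. XBP1 had log2 ratios of -0.35 to -0.33 across scalings and FPKM. HSP90B1, CANX and P4HB moved by more than their narrow intervals under total counts and FPKM. Depth limits ERN1 and ERO1B most among the kept members. A gap between cultures treated alike was not measured, so whether shifts of this size exceed it was not tested.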
